A study of Mus musculus with 6 samples.

Results

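Imprinted genes are transcribed mainly from the copy inherited from one parent. A set of 10 that are active in islets was chosen by name: Peg10, Dlk1, Nnat, Mest, Peg3 and Plagl1, which are expressed from the paternal copy, and Meg3, Rian, Mirg and Grb10, which are expressed from the maternal copy in most tissues. They are 10 of the 55536 genes in the deposited count table, and all 10 passed the limit on low counts and were tested. The study sequenced polyA RNA of whole pancreatic islets to ask which genes the zinc finger transcription factor Klf4 regulates in alpha cells, the glucagon-producing cells of the islet. There were 3 libraries from Klf4fl/fl;Gcg-iCre islets (knockout replicates 1 to 3) and 3 from Klf4+/+;Gcg-iCre islets (control replicates 1 to 3), on the background the labels spell C57B1/6J. Both groups carried the Gcg-iCre driver, a Cre recombinase under the glucagon gene, which directs recombination to alpha cells; whole islets also hold beta, delta and non-endocrine cells, and recombination was not measured by cell type. The labels used here give no age, no sex and no batch, and do not say whether each library came from its own animal.

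Imprinted genes lie in clusters in which one methylated control region sets which parental copy of several genes is read. In the Dlk1-Dio3 cluster the paternal copy gives the protein-coding gene Dlk1, while the maternal copy gives the long noncoding RNAs Meg3, Rian and Mirg, whose introns and exons carry many microRNAs and small nucleolar RNAs. Several of these genes are known in the islet: the human MEG3 region has been linked to diabetes, PLAGL1 overexpression causes transient neonatal diabetes, Nnat aids the processing of preproinsulin in beta cells, and Grb10 is an adaptor protein that dampens insulin receptor signalling.

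The 6 libraries held 101277200 to 110243918 counts. Klf4 itself had normalized counts of 3148, 2879 and 2015 in the controls and 2340, 2540 and 2277 in the knockouts, so the groups overlapped (log2 fold change -0.17 ± 0.15 SE, DESeq2 adjusted p = 0.774). Control replicates 1 and 2 were above every knockout and control replicate 3 below them all, and without that control the value was -0.34 (DESeq2 adjusted p = 0.00568). The glucagon gene Gcg was lower in the knockouts (-0.56 ± 0.13, DESeq2 adjusted p = 0.00332, edgeR adjusted p = 0.402), and Ins1, Ins2 and Sst had log2 fold changes of 0.08, 0.024 and -0.26, none past the threshold. Of 10 alpha-cell markers 4 fell in DESeq2 and 0 in edgeR (6 at an unadjusted p under 0.05 in either tool, among them Sstr2, which was higher at 0.60, adjusted p = 0.0541 in DESeq2), with a summed level of 63638 to 89523 TPM, a level per exon length scaled to a fixed library total, in the controls and 48356 to 57492 in the knockouts. None of 10 beta-cell markers passed in DESeq2 or edgeR, with 3 and 2 at an unadjusted p under 0.05 (373527 to 405437 against 392956 to 406422 TPM), while 4 of 10 mesenchymal markers rose in DESeq2 and 3 in edgeR (325 to 355 against 428 to 441 TPM) and the acinar markers summed to 8150 to 15823 against 21180 to 28862 TPM, with 1 of 10 past the threshold in DESeq2 and 0 in edgeR (10 at an unadjusted p under 0.05 in either tool). In DESeq2 2 of 7 duct and 3 of 8 macrophage markers rose; edgeR called 0 of either (2 and 4 at an unadjusted p under 0.05), and the macrophage sums overlapped (175 to 207 against 178 to 203 TPM). The alpha-cell and beta-cell sums are mostly Gcg, Ins1 and Ins2. Without these the alpha-cell sums were 4834 to 5606 TPM in the controls and 3639 to 4444 in the knockouts. The beta-cell sums were then 32939 to 39290 against 38537 to 39944 TPM. No marker of any list was at 0. Xist, the noncoding RNA of the inactive X chromosome, had 77938 to 108105 normalized counts in the controls and 12.4 to 30.2 in the knockouts, and the Y-linked genes Ddx3y, Uty, Kdm5d and Eif2s3y were at 0 counts in every control and present in every knockout. Genotype and sex therefore cannot be told apart in any comparison that follows, and in whole islets fewer cells of a type cannot be told apart from less RNA per cell. The part that these shifts play in the values of the imprinted genes was not tested.

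Across genes, levels were compared per exon length. Peg3, a zinc finger protein gene, was the highest at a mean of 390 TPM over the 6 libraries, rank 121 of all genes. Meg3 followed at 117 TPM, Nnat at 74.6, Rian at 65.8 and Grb10 at 24.5 TPM. Mest (5.9 TPM), Plagl1 (5.54), Peg10 (5.45), Mirg (5.29) and Dlk1 (2.76) were lower, with ranks from 9694 to 12066. The library ranges of neighbours in this order overlapped, except between Peg3 and Meg3, between Rian and Grb10 and between Grb10 and Mest. Together the 10 genes took 0.318% to 0.423% of a library's counts, with the lowest share in control replicate 3.

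**Figure D1:**
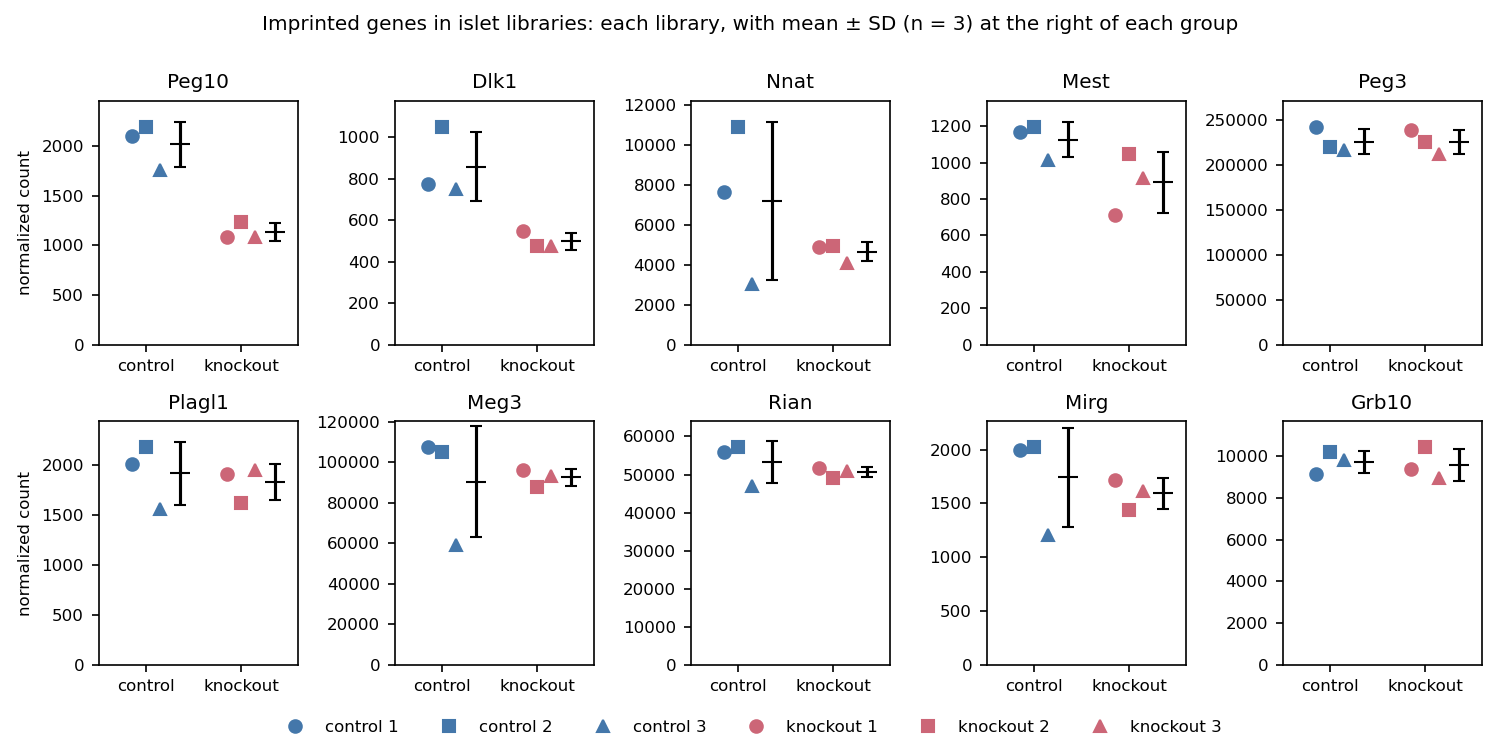
Normalized counts (vertical axes, each from 0) of the 10 imprinted genes in the control (blue) and knockout (red) libraries, with circles, squares and triangles for replicates 1, 2 and 3 and the mean ± SD (n = 3) beside each group. The groups are apart for Peg10 and Dlk1, and control replicate 3 is the lowest library for Nnat, Meg3, Rian, Mirg and Plagl1.

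Of the 10 genes, 2 fell in the knockouts and none rose at an adjusted p under 0.05 in DESeq2, the tool named in the study's design. Over all 17797 genes tested 2.19% were called (0.657% lower and 1.53% higher in the knockouts). The 2 were Peg10 and Dlk1, both expressed from the paternal copy. The median log2 fold change of the 10 was -0.10, against -0.0061 over all genes tested. Of the 10 values 9 were below 0, as were 9187 of the 17797 over all genes tested. Among the 9, Peg3, Plagl1 and Grb10 lay near 0 and changed sign when 1 library was left out. The same 2 genes were the ones whose groups did not overlap, a pattern that 17.3% of all tested genes showed in one direction or the other and 8.23% showed as lower in the knockouts. edgeR's quasi-likelihood test, which called 0.115% of 25210 genes (0.0198% lower, 0.0952% higher), retained Peg10 alone.

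Peg10 is a gene derived from a retrotransposon. It keeps gag-like and pol-like reading frames, and a shift of the ribosome by one base joins them into a longer protein. The shift takes place at a heptamer near the end of the first frame, shown here because it marks the feature for which the gene is known. The bases below are chr6:4755267-4755351 of GRCm38, plus strand, in the GENCODE M21 transcript of Peg10, with the heptamer in capitals and the stop codon of the first frame, which has 376 codons, at the end.
Peg10 shift site: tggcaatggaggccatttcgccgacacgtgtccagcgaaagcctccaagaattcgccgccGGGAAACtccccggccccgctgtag

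Peg10 (ENSMUSG00000092035, chr6:4747306-4760517, plus strand) had normalized counts of 2104, 2189 and 1759 in the controls and 1080, 1238 and 1081 in the knockouts. Every knockout library was below every control library, and the 3 knockouts lay close together. The mean fell from 2017 ± 228 to 1133 ± 90.6 (SD, n = 3 each), a difference of -43.8%. The log2 fold change was -0.83 ± 0.12 SE (95% interval -1.06 to -0.60), with an adjusted p of 1.17e-09 in DESeq2, rank 22 of all genes, and 0.0311 in edgeR. On the level scale it was 6.98 ± 0.917 TPM in the controls and 3.92 ± 0.221 TPM in the knockouts (SD, n = 3). Its call held in 12 of 12 alternative analyses.

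Sgce, which encodes epsilon-sarcoglycan and is expressed from the paternal copy, starts 99 bases from Peg10 on the opposite strand. Its normalized counts were 2066, 2415 and 1589 in the controls and 1625, 2004 and 1585 in the knockouts, so its groups overlapped (-0.22 ± 0.15, DESeq2 adjusted p = 0.667; -0.073 without control replicate 2 and -0.37 without control replicate 3, where the adjusted p was 0.0769). Within each library, the log2 ratio of Peg10 to Sgce counts was 0.03, -0.14 and 0.15 in the controls and -0.59, -0.70 and -0.55 in the knockouts. The 2 genes thus had nearly equal counts in the controls and Peg10 had fewer than Sgce in every knockout; this ratio was chosen after its values were seen and carries no test. Elsewhere in the cluster, Ppp1r9a (0.054, adjusted p = 0.876) and Asb4 (-0.17, adjusted p = 0.801) did not pass in DESeq2, and Calcr was below the count limit.

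The Dlk1-Dio3 cluster on chromosome 12 holds 4 of the 10 genes, and the windows around the starts of Dlk1 and Meg3 are shown to set a paternally expressed start beside a maternally expressed one. Krüppel-like factors bind CACCC-type and GC-rich DNA, so the letters CACCC and their reverse complement GGGTG were searched on the printed strand, which covers both strands, and are in capitals. The windows run from 250 bases before to 50 bases after each start, from RefSeq on GRCm38.p6, chr12:109452573-109452872 for Dlk1 and chr12:109540746-109541045 for Meg3, both on the plus strand. The table has another start window for Meg3, chr12:109545148-109545447, which is not printed.
Dlk1: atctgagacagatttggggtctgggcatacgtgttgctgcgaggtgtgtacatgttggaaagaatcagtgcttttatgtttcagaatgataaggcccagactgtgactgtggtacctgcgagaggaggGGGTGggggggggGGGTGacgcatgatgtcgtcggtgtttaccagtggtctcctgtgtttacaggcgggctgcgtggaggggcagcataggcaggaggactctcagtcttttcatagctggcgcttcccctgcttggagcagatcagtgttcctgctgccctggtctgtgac
Meg3: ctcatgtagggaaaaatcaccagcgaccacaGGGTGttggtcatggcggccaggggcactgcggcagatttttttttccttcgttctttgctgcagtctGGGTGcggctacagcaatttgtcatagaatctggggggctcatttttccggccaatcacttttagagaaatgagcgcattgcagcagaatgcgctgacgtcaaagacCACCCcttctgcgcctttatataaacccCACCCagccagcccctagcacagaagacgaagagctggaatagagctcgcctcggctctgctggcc

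The Dlk1 window holds the letters 2 times and 9 CG pairs, and the Meg3 window printed here holds them 4 times and 13 CG pairs; the other Meg3 window holds them 7 times and 1 CG pair. No match in the printed windows overlaps another. Of all 32851 windows of 300 bases in the table, 57.5% hold at least 1 match and 3.1% hold 4 or more, and the median window has 7 CG pairs. Of the 10 genes, 9 have a window there, and 8 of their 13 windows hold a match. A match describes the letters only, and no binding was measured.

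Dlk1 (ENSMUSG00000040856, chr12:109452823-109463336, plus strand) encodes a membrane protein with EGF-like repeats, related to the ligands of Notch, that holds back differentiation in several tissues. Its normalized counts were 774, 1048 and 749 in the controls and 546, 475 and 475 in the knockouts. All knockouts were below all controls, and control replicate 2 stood highest. The mean fell from 857 ± 166 to 499 ± 40.8 (SD, n = 3), a difference of -41.8%. The log2 fold change was -0.78 ± 0.16 SE (95% interval -1.10 to -0.46), with adjusted p = 0.000334 in DESeq2 and 0.172 in edgeR, which did not make the call. Of 12 alternative analyses 11 kept it past the threshold. Dlk1 was low in the islet at 3.48 ± 0.583 TPM in the controls and 2.03 ± 0.182 TPM in the knockouts.

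Meg3 (ENSMUSG00000021268, chr12:109541001-109571726, plus strand) is a long noncoding RNA that starts 77664 bases beyond the end of Dlk1. Its normalized counts were 107399, 104964 and 58967 in the controls and 96237, 87913 and 93473 in the knockouts. Control replicates 1 and 2 were above every knockout, and control replicate 3 was below every knockout. The means were 90443 ± 27286 and 92541 ± 4239 (SD, n = 3), with a log2 fold change of 0.033 ± 0.17 (95% interval -0.30 to 0.36, or -18.6% to 28.6%) and a DESeq2 adjusted p of 0.981. Without control replicate 3 the sign turned: -0.20 ± 0.059, adjusted p = 0.0185 in DESeq2. No other alternative called Meg3, and none called it higher.

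Rian (ENSMUSG00000097451, chr12:109603940-109661716, plus strand) hosts the small nucleolar RNAs of the cluster. Its normalized counts were 55955, 57140 and 47018 in the controls and 51708, 49128 and 50838 in the knockouts, with control replicate 3 again the lowest of the 6. The log2 fold change was -0.078 ± 0.087 (DESeq2 adjusted p = 0.844), and without that library -0.16 ± 0.05 (adjusted p = 0.0281). Mirg (ENSMUSG00000097391, chr12:109729764-109749460, plus strand), a microRNA host, showed the same layout at 1998, 2021 and 1208 against 1721, 1443 and 1614. Its log2 fold change was -0.13 ± 0.17 (DESeq2 adjusted p = 0.891), and -0.33 ± 0.10 without control replicate 3 (adjusted p = 0.0267). Without control replicate 1 or 2 the values moved toward 0, to -0.044 and -0.026 for Rian and to -0.021 and -0.01 for Mirg.

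The hosts were read as long polyadenylated RNA, not as microRNAs. By the RefSeq table, 14 hairpins with 26 mature microRNAs lie within Mirg, 3 hairpins with 6 within Rian and 2 with 3 within Meg3. One seed, bases 2 to 8, is shared by 2 microRNAs of Mirg, which are shown for what the host carries. They lie at chr12:109735669-109735692 and chr12:109739132-109739152 on the plus strand of GRCm38.p6, with the seed in capitals.
mmu-miR-453: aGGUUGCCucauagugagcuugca
mmu-miR-496a-5p: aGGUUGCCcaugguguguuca

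Between Dlk1 and Dio3 the annotation lists 118 genes over 828275 bases, among them 67 microRNA genes and 23 small nucleolar RNA genes. All 67 microRNA genes together drew 712 counts over the 6 libraries, against 877693 for Meg3, Rian and Mirg, and 18 of them reached 10 counts. The libraries were made from polyA RNA, so these counts do not measure mature microRNAs. Of the 14 genes in the interval that were tested, Dlk1 was the one past the threshold, where 2.19% of all genes tested were called. Rtl1, a paternally expressed gene derived from a retrotransposon, had normalized counts of 0, 9.6 and 2.12 in the controls and 18.9, 22.7 and 13 in the knockouts, and Dio3, a deiodinase gene, had 1.98 to 14.4; DESeq2 gave neither an adjusted p, and edgeR gave 0.545 and 0.837. For Rtl1 all knockouts were above all controls, at very low counts. Begain, next to Dlk1, had a log2 fold change of -0.047 (DESeq2 adjusted p = 0.982).

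Ratios within a library do not depend on how libraries are scaled to each other. The 6 tested ratios were chosen with earlier results of these data known. Those with Dlk1 rest on the same Dlk1 counts as above. The log2 ratio of Dlk1 to Meg3 was -7.12, -6.65 and -6.30 in the controls and -7.46, -7.53 and -7.62 in the knockouts. It was lower in every knockout than in every control, by 0.85 in the means (-0.85, exact two-sided permutation p = 0.1, the smallest that 3 against 3 allows, 0.15 adjusted over 6 ratios). The control spread was wide, and control replicate 3 had the highest ratio. Mirg to Meg3 was -5.75, -5.70 and -5.61 against -5.81, -5.93 and -5.86, a difference of -0.18 without overlap (exact permutation p = 0.1, adjusted 0.15). Rian to Meg3 was -0.94, -0.88 and -0.33 against -0.90, -0.84 and -0.88 (difference -0.16, exact permutation p = 0.8, adjusted 0.8). In control replicate 3, then, Meg3 was low relative to Rian, by more than in any other library.

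**Figure D2:**
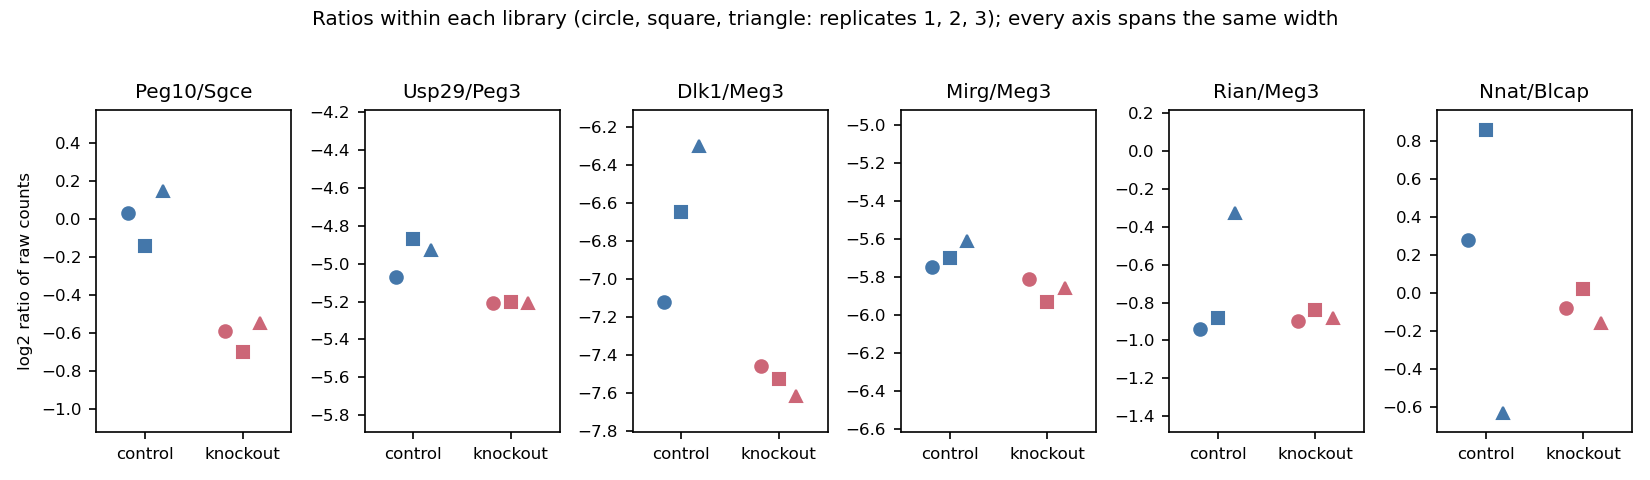
Log2 ratio of raw counts of gene pairs (vertical axes, all spanning the same width) within each control (blue) and knockout (red) library, with circles, squares and triangles for replicates 1, 2 and 3. Peg10/Sgce, Usp29/Peg3, Dlk1/Meg3 and Mirg/Meg3 do not overlap between the groups, whereas Rian/Meg3 and Nnat/Blcap do.

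Control replicate 3 also stood apart over the table as a whole. Of 15811 genes with a mean of at least 50 normalized counts, 11.6% lay more than 0.5 log2 units from the other 2 controls there, against 5.84% to 7.66% in the other libraries compared with their own group. The deviation was -0.85 for Meg3, -0.73 for Mirg and -0.27 for Rian. The nuclear noncoding RNA Malat1 was at 77328, 75336 and 41638 normalized counts in the 3 controls, and Kcnq1ot1, an imprinted noncoding RNA of another cluster, at 4096, 4163 and 2192; the knockouts had 111464, 78187 and 124388 for Malat1 (0.69, DESeq2 adjusted p = 0.348) and 3989, 3595 and 4237 for Kcnq1ot1. Neat1, another nuclear noncoding RNA, was higher in the knockouts on average, though its groups overlapped (0.60, adjusted p = 0.017 in DESeq2 and 0.336 in edgeR). In DESeq2 its adjusted p was 0.323 without control replicate 3 and 0.62 with a block for the replicate number. Not every imprinted noncoding RNA was low in control replicate 3: Airn deviated there by -0.08 and Peg13 by 0.26. Malat1, Kcnq1ot1, Neat1 and Airn were named after their values were seen. The part of such a shift in the values of Meg3, Rian and Mirg was not tested. Without that library, 6 of the 10 genes fell in DESeq2 and none rose, where 6.28% of 15160 genes tested were called (2.48% lower and 3.8% higher), and their median was -0.27. The median was -0.05 without control replicate 1 and -0.03 without control replicate 2. What sets this library apart was not tested.

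Nnat (ENSMUSG00000067786, chr2:157560078-157562522, plus strand) encodes neuronatin, a small membrane protein of the endoplasmic reticulum, and lies inside an intron of Blcap on the opposite strand. It was the most variable of the 10 genes in the controls; in the knockouts Mest was, with a coefficient of variation of 18.9%. Normalized counts were 7648, 10894 and 3056 in the controls and 4881, 4962 and 4105 in the knockouts, so control replicates 1 and 2 were above and control replicate 3 below all knockouts. The coefficient of variation was 54.7% in the controls and 10.2% in the knockouts, against medians of 7.27% and 4.8% over the 11330 genes whose mean count reached 500. The log2 fold change was -0.63 ± 0.51 (95% interval -1.63 to 0.37, DESeq2 adjusted p = 0.745). Without control replicate 3 it was -1.0 ± 0.15 (DESeq2 adjusted p = 2.73e-09), and without control replicate 2, the highest, it was -0.20 (DESeq2 adjusted p = 0.984). In control replicate 3 the deviation from the other controls was -1.58. Blcap, the host gene, had -0.22 (DESeq2 adjusted p = 0.441), and -0.33 without control replicate 3 (adjusted p = 0.000843). Without control replicate 1 it was -0.14 and without control replicate 2 it was -0.18 (DESeq2 adjusted p = 0.725 and 0.828). The log2 ratio of Nnat to Blcap was 0.28, 0.86 and -0.63 in the controls and -0.08, 0.02 and -0.16 in the knockouts, which overlapped.

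Mest (ENSMUSG00000051855, chr6:30723547-30748465, plus strand) encodes an enzyme-like protein of the alpha/beta hydrolase fold, known for its link to fat cell growth. Its normalized counts were 1168, 1195 and 1017 in the controls and 714, 1049 and 914 in the knockouts. Knockout replicate 2 lay within the control range and the other two knockouts below it. The log2 fold change was -0.34 ± 0.15 (95% interval -0.63 to -0.041), with adjusted p = 0.321 in DESeq2 and 0.517 in edgeR, so Mest did not pass. Its exons overlap those of Copg2 on the opposite strand, and the strand setting of the counting is not given in the sources used here, so reads of the pair may not be separable. Copg2 (-0.044, adjusted p = 0.939) and Cep41 (-0.24, adjusted p = 0.609) did not pass in DESeq2 either, and Klf14 had no adjusted p in DESeq2 and 1 in edgeR. The log2 ratio of Mest to Peg3 was lower in the knockouts by 0.35 (-0.35, exact permutation p = 0.1, adjusted 0.15). Without knockout replicate 1, the lowest library, that ratio differed by -0.15 and the log2 fold change of Mest was -0.20.

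Peg3 and Usp29 lie head to head on chromosome 7, with starts 147 bases apart. The window around the Peg3 start is shown because it spans both starts. It is chr7:6730370-6730669 of GRCm38.p6, minus strand, from RefSeq, with CACCC and GGGTG in capitals; it has 2 matches and 13 CG pairs.
Peg3: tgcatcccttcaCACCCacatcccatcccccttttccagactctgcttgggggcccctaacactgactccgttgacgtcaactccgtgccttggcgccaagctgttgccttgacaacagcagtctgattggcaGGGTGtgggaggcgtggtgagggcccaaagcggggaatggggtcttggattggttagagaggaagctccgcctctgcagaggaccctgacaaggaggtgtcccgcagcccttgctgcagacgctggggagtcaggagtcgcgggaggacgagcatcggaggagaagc

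Peg3 (ENSMUSG00000002265, chr7:6703892-6730431, minus strand) had normalized counts of 241559, 219031 and 216119 in the controls and 237801, 225117 and 211470 in the knockouts. The groups covered nearly the same range. The means were 225570 ± 13924 and 224796 ± 13168 (SD, n = 3), and the log2 fold change was -0.005 ± 0.077, with a 95% interval of -10.2% to 10.7% around the control level (DESeq2 adjusted p = 0.992). Usp29, a deubiquitinase gene read from the same paternal copy, had 7173, 7471 and 7102 in the controls and 6425, 6121 and 5720 in the knockouts. Its groups did not overlap, and the mean fell from 7249 ± 196 to 6089 ± 354, or -16% (-0.25 ± 0.075, DESeq2 adjusted p = 0.0416, edgeR adjusted p = 0.238). Only 3 of 12 alternative analyses kept Usp29 past the threshold. The log2 ratio of Usp29 to Peg3 was -5.07, -4.87 and -4.93 in the controls and -5.21, -5.20 and -5.21 in the knockouts, a ratio chosen after its values were seen and not tested. Zim1, on the other side of Peg3, had -0.051 (DESeq2 adjusted p = 0.961), and Zfp264 had no adjusted p in DESeq2 and 0.914 in edgeR.

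Plagl1 (ENSMUSG00000019817, chr10:13060504-13131694, plus strand) encodes a zinc finger transcription factor. Its normalized counts were 2013, 2180 and 1563 in the controls and 1917, 1627 and 1949 in the knockouts, with overlapping groups (-0.068 ± 0.14, 95% interval -0.33 to 0.20, DESeq2 adjusted p = 0.94). The log2 ratio of Plagl1 to Dlk1 was 1.38, 1.06 and 1.06 against 1.81, 1.78 and 2.04, higher in every knockout by 0.71 in the means (exact permutation p = 0.1, adjusted 0.15). Nnat to Dlk1 was 3.31, 3.38 and 2.03 against 3.16, 3.38 and 3.11 (difference 0.31, exact permutation p = 0.8, adjusted 0.8). Phactr2, next to Plagl1, had 0.14 (DESeq2 adjusted p = 0.587).

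Grb10 (ENSMUSG00000020176, chr11:11930508-12038683, minus strand) had normalized counts of 9154, 10204 and 9807 in the controls and 9365, 10426 and 8945 in the knockouts. The control range lay within the knockout range, with a log2 fold change of -0.021 ± 0.085 (95% interval -0.19 to 0.15, DESeq2 adjusted p = 0.975). Its neighbours Ddc, the aromatic amino acid decarboxylase gene, and Cobl had -0.23 and -0.22, with adjusted p of 0.266 and 0.292 in DESeq2.

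**Figure D3:**
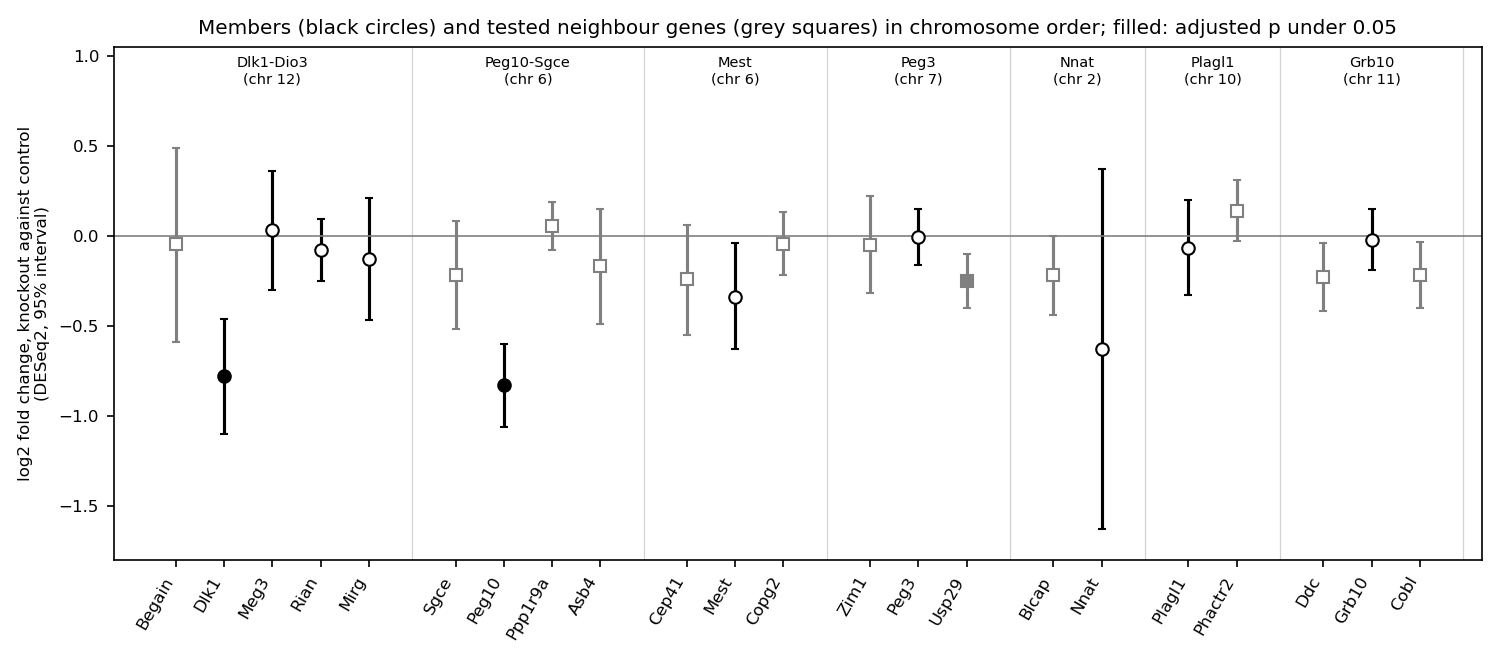
Log2 fold change of knockout against control with its 95% interval (vertical axis, DESeq2, n = 3 libraries a group) for the 10 imprinted genes (black circles) and their tested neighbours (grey squares), in chromosome order within 7 domains, filled where the adjusted p was under 0.05. Peg10, Dlk1 and Usp29 are filled, and all other genes drawn are open.

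Of the 17 neighbour genes, 12 had an adjusted p in DESeq2. Usp29 fell and none rose, where 0.657% of all genes fell and 1.53% rose, and the median log2 fold change of the 12 was -0.19. In edgeR 0 of 16 passed, with 3 at an unadjusted p under 0.05 (9.48% of all genes) and a median of -0.11. By parental copy, 2 of the 6 paternally expressed genes fell in DESeq2 and 1 in edgeR (median -0.48, with 3 at an unadjusted p under 0.05 in either tool). Of the 4 maternally expressed ones 0 passed in DESeq2 or edgeR (median -0.05, with 0 at an unadjusted p under 0.05 in either tool). Over all genes tested, 2.19% were called in DESeq2 and 0.115% in edgeR. Without control replicate 3, 3 of the 6 paternally and 3 of the 4 maternally expressed genes fell, where 6.28% of all genes were called. The difference between the parental classes was not tested.

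**Figure D4:**
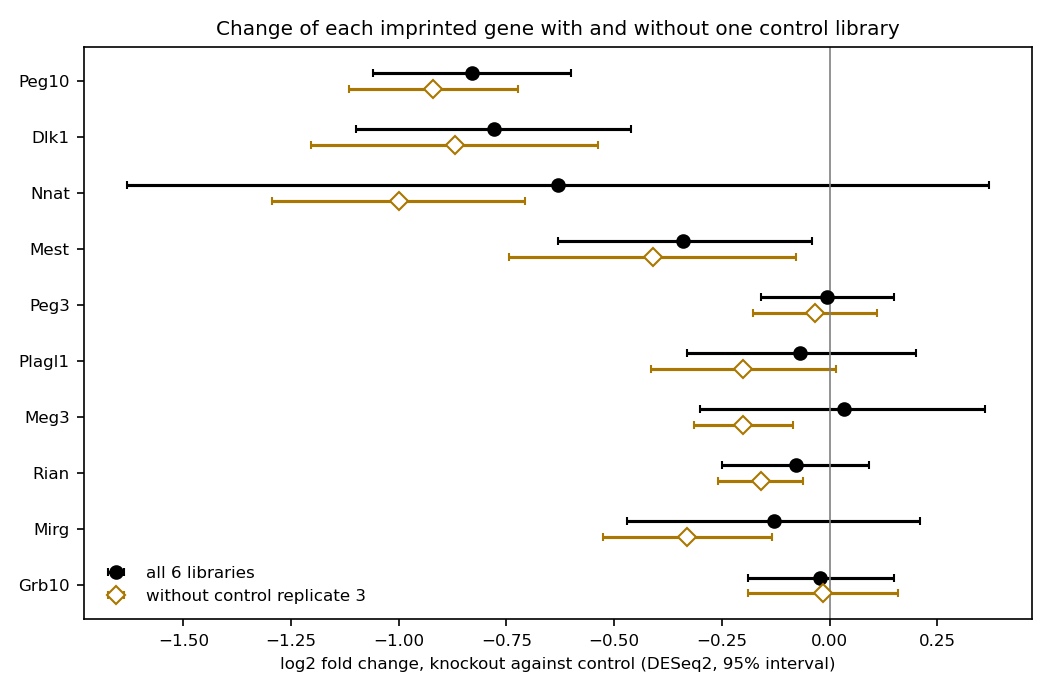
Log2 fold change of knockout against control with its 95% interval (horizontal axis, DESeq2) for each of the 10 genes, with all 6 libraries (black circles) and without control replicate 3 (open diamonds). Without that library Nnat moves from -0.63 to -1.0 with a narrower interval and Meg3 from 0.033 to -0.20, while Peg3 and Grb10 stay near 0.

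Of 53 other imprinted genes, 44 were tested, 2 rose and 1 fell, where 1.53% of all tested genes rose and 0.657% fell. Their median log2 fold change was -0.053. Dcn, which encodes the matrix proteoglycan decorin, had 4912, 5388 and 4256 normalized counts in the controls and 6666, 6440 and 6859 in the knockouts (0.46 ± 0.10, adjusted p = 0.000577 in DESeq2 and 0.16 in edgeR). Slc38a4, an amino acid transporter gene, had 43475, 42281 and 39695 against 53489, 53452 and 49409 (0.32 ± 0.07, adjusted p = 0.00121 in DESeq2 and 0.21 in edgeR; 0.0582 in DESeq2 without knockout replicate 1). Both had groups that did not overlap, a pattern that 11 of the 53 genes and 17.3% of all genes tested showed in one direction or the other. The gene that fell was Usp29. edgeR called 0 of 49, with 7 at an unadjusted p under 0.05, a level that 9.48% of all genes reached. Without control replicate 3, 4 of 39 tested rose and 5 fell, where 3.8% of all genes tested rose and 2.48% fell. Of the 5 with the highest levels, Gnas, Ddc, Peg13 and Tssc4 had log2 fold changes of -0.084, -0.23, -0.0086 and -0.21, none past the threshold, and Slc38a4 was the remaining one.

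Likeness of pattern was measured as the root mean square distance between centred log2 normalized counts over the 6 libraries. Among 15801 genes that were no members of the set, Ccdc62 (0.038), Slc25a27 (0.044), Ccn2 (0.047), 4833422M21Rik (0.053) and Clk1 (0.059) were nearest to Meg3. Like Meg3, by which they were chosen, these 5 were low in control replicate 3. Nearest to Dlk1 were Doc2a (0.112), Ppat (0.119), Smim24 (0.121), Sertm1 (0.123) and Epha8 (0.131). Of these, Ppat, the first enzyme of purine synthesis, had 5149, 5557 and 4675 against 3416, 3255 and 3105 normalized counts (-0.65, adjusted p = 5.76e-10 in DESeq2 and 0.0176 in edgeR). Smim24 (-0.61, adjusted p = 0.00278) and Sertm1 (-0.84, adjusted p = 0.013) passed in DESeq2 but not in edgeR (0.201 and 0.283), and Doc2a and Epha8 passed in neither. All 10 genes were chosen for their likeness to Meg3 or Dlk1 in these same libraries, so their values are a description.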

How the data were processed

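PolyA RNA of whole islets was measured in 3 control and 3 knockout libraries. The authors deposited 1 table of raw read counts per gene (55536 genes), trimmed with cutadapt per the file's name. Per the submitters' processing notes, FastQC, STAR, featureCounts, DESeq2 and the mm10 build were used; versions, settings and strand mode are not given in the sources used here. All gene identifiers matched GENCODE M21, whose union exon lengths gave TPM. Total counts ran from 101277200 to 110243918.

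DESeq2 1.42.0 in R 4.3.3 (Wald test, median-of-ratios scaling, genes with at least 10 counts in all, Benjamini-Hochberg adjusted p under 0.05) was the chosen test, after the series' design text, and edgeR 4.0.16 was run as an alternative. Both were tested on simulated data. Normalized counts are counts divided by the DESeq2 size factors. SE and 95% intervals are DESeq2's. Ratios used an exact two-sided permutation test over libraries. The labels do not say that libraries came from separate animals, so p-values measure only the spread between these libraries, which may be technical. Groups came from the genotype labels.

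The genes named are the 10 imprinted genes, Klf4, 17 neighbours, other imprinted genes past the threshold or among the 5 highest in level, Gcg, Ins1, Ins2, Sst, and the 5 genes nearest in pattern to Meg3 and to Dlk1. Xist, the Y-linked genes, Sstr2, Malat1, Neat1, Kcnq1ot1 and Airn were added after their values were seen. The genes, lists and tests were chosen with earlier results of these data known. Alternatives were edgeR, TMM scaling, total-count scaling (chosen after seeing the data), no filter, a stricter filter, a replicate block and leaving out each library.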

Additional observations from a re-analysis of the deposited data

How the results depend on the processing

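Peg10 was called under all 12 alternatives (adjusted p 3.96e-16 in DESeq2 to 0.0311 in edgeR) and Dlk1 under all but edgeR. Against 389 genes called in all, 2 of them members, and 3 other imprinted genes, edgeR called 29, 1 and 0. Leaving out 1 library gave 153 to 952 genes, 2 to 6 members and 1 to 9 other imprinted genes, with 952, 6 and 9 without control replicate 3, 153 without knockout replicate 1, and 1 other imprinted gene without knockout replicate 1. Leaving out 1 library also turned the sign for Meg3 (-0.20 to 0.17), Peg3 (-0.048 to 0.046), Plagl1 (-0.20 to 0.034), Grb10 (-0.085 to 0.025), Begain (-0.32 to 0.20), Zim1 (-0.22 to 0.042), Copg2 (-0.092 to 0.022), Peg13 (-0.095 to 0.084), Tssc4 (-0.33 to 0.002) and the ratios of Rian to Meg3 (-0.27 to 0.038) and Nnat to Dlk1 (-0.12 to 0.55). Among other genes not called, Gnas ran from -0.13 to -0.04, Asb4 from -0.30 to -0.033, Ddc from -0.29 to -0.11 and Cep41 from -0.35 to -0.14. The cause was not tested. Adding a block for the replicate number gave 405 genes in DESeq2 and the same number of members, 2; Usp29 no longer passed (adjusted p = 0.0672), and 9 of 10 acinar markers were called against 1 without the block. Same-numbered libraries did not deviate together over the genes as a whole (correlations -0.048, -0.059 and 0.010 over 15811 genes). With 3 libraries a group, these values cannot show whether the numbers pair the samples. With 3 libraries a group, exact tests cannot reach a p below 0.1, and Rtl1, Dio3, Klf14 and Zfp264 were too low for an adjusted p in DESeq2.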

Other observations

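Plagl1 is known as a regulator of a network of imprinted genes. Of 16 genes of that network, 15 were tested in DESeq2, 2 rose (Dcn and Slc38a4) and 1 fell (Dlk1), where 1.53% of all genes tested rose and 0.657% fell, and their median log2 fold change was -0.021. Without control replicate 3, 4 of 13 rose and 2 fell, where 3.8% of all genes rose and 2.48% fell. edgeR called 0 of 16, with 4 at an unadjusted p under 0.05, a level that 9.48% of all genes reached.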
